A study of Mus musculus with 2 samples.

Results

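The Krüppel-like factors are transcription factors that bind GC-rich and CACCC-box DNA through 3 zinc fingers near the end of the protein. Family members share this DNA-binding domain and differ in the rest of the protein, through which some recruit co-activators and others the co-repressors CtBP or Sin3A. Klf4 is one of the reprogramming factors, and Klf2, Klf4 and Klf5 belong to the circuit that keeps mouse embryonic stem cells in the naive state, whereas many relatives are best known from fibroblasts, epithelium, neurons or as early response genes. Described here are 7 members taken by name from the 17408 genes of the deposited table, namely Klf3, Klf5, Klf6, Klf7, Klf9, Klf10 and Klf13, without regard to their levels. They had been proposed as somatic Krüppel-like factors, and the levels went against that name for Klf5, Klf3, Klf9 and Klf10, which were higher in pluripotent-like cells than in the mean of the other cell states. For Klf10 this was weak, since no difference from fibroblast-like cells was detected (difference 0.02, 95% interval −0.30 to 0.34) and its call against the other states was lost at equal depth. Klf9 also had a limit. Its difference from fibroblast-like cells was small (0.32) and that call was lost at equal depth. In replicate 1 another state had a higher Klf9 level than pluripotent-like cells.

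The cells were mouse embryonic fibroblasts (MEFs) carrying STEMCCA, a doxycycline-inducible cassette of Pou5f1, Sox2, Klf4 and Myc, taken unsorted at day 16 of reprogramming into induced pluripotent stem cells and profiled with droplet-based 3′ single-cell RNA-seq. The 2 libraries form 1 group, in embryonic stem cell medium with LIF and ascorbic acid, and no starting MEF sample was analysed here. The study worked with a pair of independent STEMCCA systems, and the labels do not say which of them gave which library. Replicate 1 held 3109 cells with a median of 15625 unique molecular identifiers (UMIs) per cell, replicate 2 held 3914 cells with a median of 14292, and 12 cell barcodes occurred in both libraries.

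Cells were grouped into 15 states by clustering in which no Klf or Sp gene took part. The pluripotent-like state (146 and 390 cells in replicates 1 and 2) had 10 of 10 markers raised at least 2-fold, the fibroblast-like state (252 and 165 cells, led by Spp1, Mmp3 and Mmp13) 8 of 11, and the myofibroblast-like state (196 and 103 cells, led by Mylk) 8 of 8. The other states with at least 30 cells in each library stayed unnamed and are called here by a leading gene: the Mmp11, Pcp4, Rarres2, Dkk2, Cib2 and Perp states, and 3 cycling states led by Cenpa (mitotic), Hist1h1b (S phase) and Tcf19. Unless said otherwise, the other states, or elsewhere, stand for those with at least 30 cells in each library. Levels are UMIs of a gene per 10000 UMIs of the cell, averaged over the cells of a state in a library. Differences are on the log2(level + 0.1) scale, which understates the change of low genes, and were tested with limma over 7131 genes on 24 profiles, 1 for each of 12 states in each library. The states were drawn on the same cells, so these p-values measure how closely the 2 libraries repeat a difference between states, not an independent comparison, and an exact sign-flip test over 2 libraries cannot go below a two-sided p of 0.5.

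The 3 zinc fingers were found in the longest annotated coding sequence of each member (GENCODE M21), and the coding bases of the last finger are shown because they carry the split within the family. Capitals mark the codons of the cysteine and histidine residues that hold the zinc ion. Of the 67 finger residues compared, with the linkers left out, Klf6 and Klf7 shared 95.5%, Klf3 and Klf5 85.1%, and Klf9 and Klf13 82.1%, while Klf6 and Klf9 shared 61.2%.
Klf5: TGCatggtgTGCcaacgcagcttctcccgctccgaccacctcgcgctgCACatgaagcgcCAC
Klf6: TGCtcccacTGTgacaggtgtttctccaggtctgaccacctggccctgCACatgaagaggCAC
Klf7: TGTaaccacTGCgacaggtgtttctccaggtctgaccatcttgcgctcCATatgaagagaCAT
Klf3: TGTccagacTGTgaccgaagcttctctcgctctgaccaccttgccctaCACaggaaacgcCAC
Klf9: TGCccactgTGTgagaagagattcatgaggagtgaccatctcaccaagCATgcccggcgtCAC
Klf10: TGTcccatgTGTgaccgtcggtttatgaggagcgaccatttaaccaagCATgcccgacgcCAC
Klf13: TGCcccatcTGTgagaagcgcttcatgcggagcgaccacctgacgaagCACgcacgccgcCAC
Closeness in the fingers went with like and with unlike directions in pluripotent-like cells: Klf6 and Klf7 were both lower and Klf3 and Klf5 both higher, whereas Klf5 was higher where Klf7 (85.1% shared with Klf5) and Klf6 (83.6%) were lower, and Klf9 was higher where Klf13 was lower.

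Against the mean of the 11 other states, 4 of the 7 members were higher in pluripotent-like cells and 3 were lower at an adjusted p under 0.05. Klf5, Klf3, Klf9 and Klf10 were higher, and Klf7, Klf6 and Klf13 were lower. Klf5 reached the minimum level for testing through the pluripotent-like cells alone, so its call is no support for the count. Among the 7131 genes tested, 34.0% were called higher and 46.7% lower, so a member called in either direction was no rarity, and the median difference over the genes tested was −0.13. The median over the 7 members was 0.47, which is the value of Klf10. It counts Klf5, so it is no support for a shift of the members as a set. Among the 12 states fitted, both values of Klf3 and of Klf5 in pluripotent-like cells stood above every value of the other states, as did those of 18.5% of the genes tested. Both values of Klf7 and of Klf13 stood below every value of the other states, as did those of 28.0%.

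**Figure D1:**
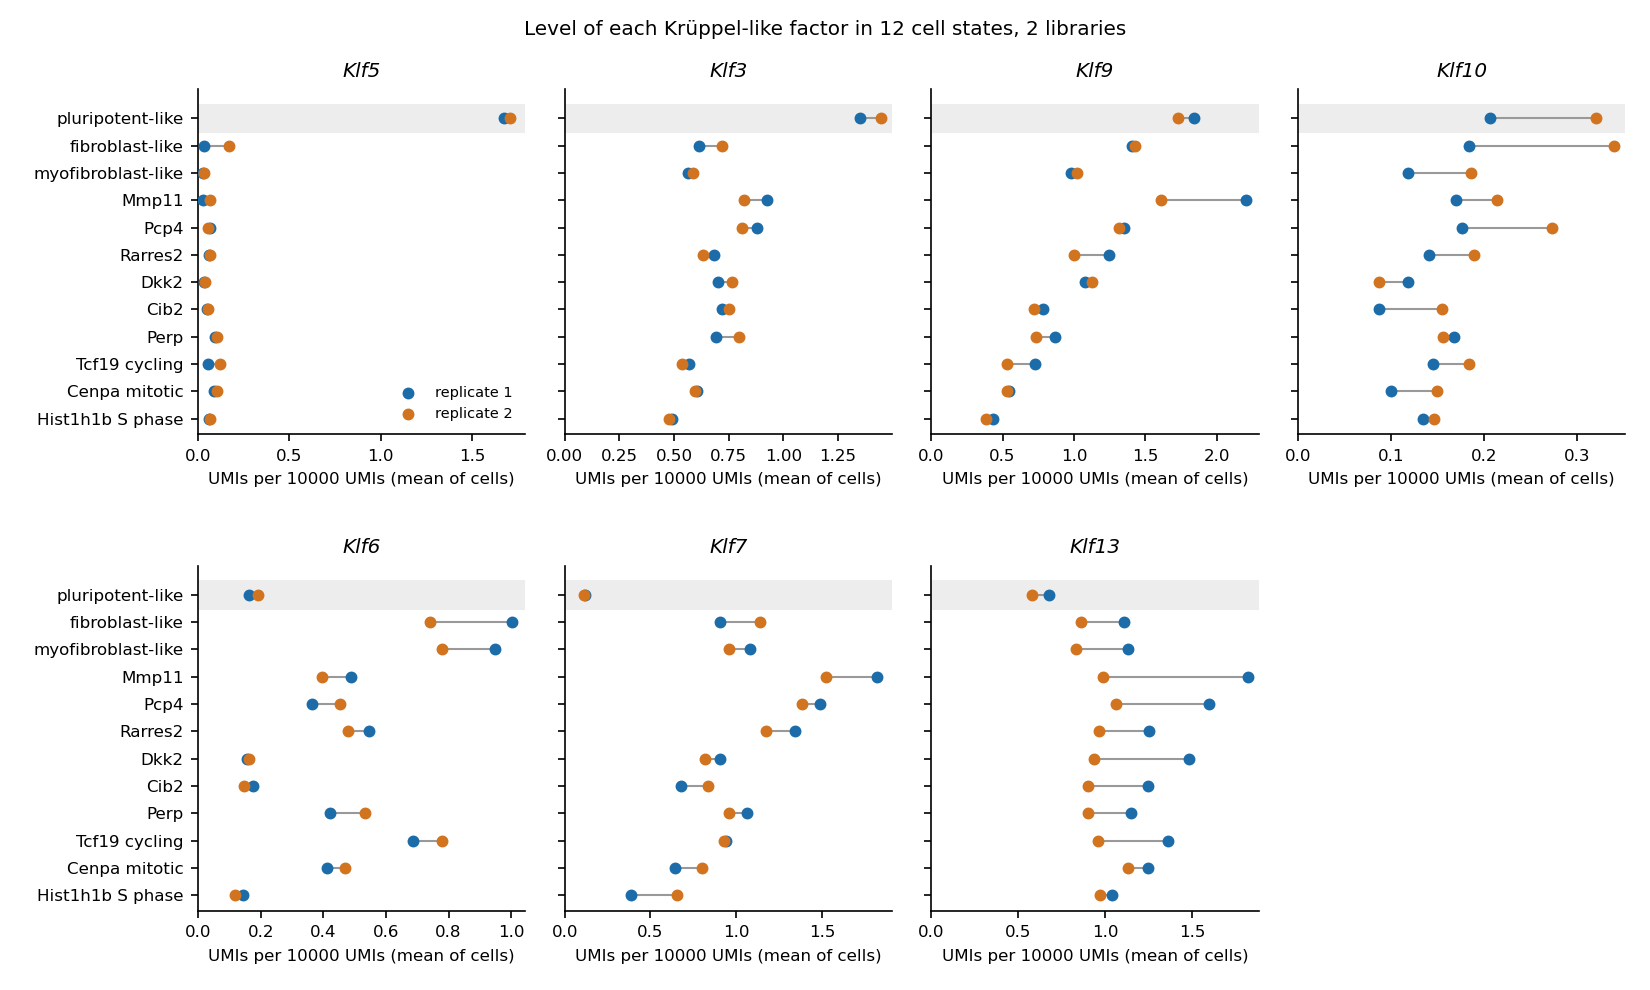
Level of each member (horizontal axis, UMIs per 10000 UMIs, from 0, a separate scale for each gene) in the 12 cell states (rows), with 1 point for each library (blue, replicate 1; orange, replicate 2) joined by a grey line and the pluripotent-like state shaded. Klf5 lay near 1.7 in pluripotent-like cells and at most at 0.168 in the other states, while Klf7 lay near 0.12 there and at least at 0.386 elsewhere.

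Klf5 (chr14:99298691-99315036, mm10), an activator of epithelial and naive pluripotency genes, showed the widest contrast between states among the 7 members. Its level in pluripotent-like cells was 1.68 in replicate 1 and 1.71 in replicate 2. In the other states it ran from 0.0263 to 0.0949, with a median of 0.0566, in replicate 1, and from 0.0341 to 0.168, with a median of 0.0665, in replicate 2. The groups did not overlap, and the difference was 3.45 ± 0.14 (SE, n = 2 libraries). This is 10.9-fold in level + 0.1, which understates the fold of the level itself. In the other states the mean level of Klf5 was 0.0544 and 0.0798, under the minimum of 0.1 for testing, so that Klf5 entered the test through the pluripotent-like cells alone and had to differ. Its differences from that state are therefore given without a p. Against fibroblast-like cells the difference was 3.26 ± 0.19, with 3.76 in replicate 1 and 2.75 in replicate 2. Klf5 in fibroblast-like cells was 0.0312 in replicate 1 (10 UMIs in 10 cells) and 0.168 in replicate 2 (31 UMIs in 25 cells). Most other states held Klf5 at a similarly low level. In 2 of the 11 pairs of neighbours in the order of the 12 states, both library values of a state exceeded both of the next.

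The Klf5 signal in pluripotent-like cells was spread over many cells. In replicate 1, 132 of 146 cells held 701 Klf5 UMIs, with at most 15 in 1 cell, and in replicate 2, 347 of 390 cells held 1741, with at most 22. Pluripotent-like cells were also deeper than the others, with median UMI counts of 28768 and 26128, against 9678 to 21882 in the other states of replicate 1 and 9743 to 21012 in those of replicate 2. After thinning each cell to 3000 UMIs, 37.7% (95% exact interval 29.8 to 46.1) and 37.4% (32.6 to 42.5) of pluripotent-like cells had a Klf5 UMI. In myofibroblast-like cells the share was 1.02% (0.124 to 3.64) and 0.971% (0.0246 to 5.29), and before thinning 90.4% and 89.0% of pluripotent-like against 3.57% and 5.83% of myofibroblast-like cells had one. At equal depth the Klf5 gap thus remained. These intervals cover counting error only.

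Klf6 (chr13:5861482-5870394), an early response factor induced by tissue injury, was high in fibroblast-like, myofibroblast-like and Tcf19 cells among the 12 states fitted. Its level was 1.00 and 0.740 in fibroblast-like and 0.948 and 0.780 in myofibroblast-like cells of replicates 1 and 2, against 0.162 and 0.193 in pluripotent-like cells. The Tcf19 state, at 0.686 and 0.779, was below fibroblast-like cells in replicate 1 and above them in replicate 2. Pluripotent-like cells were not the lowest state: the S phase (0.144 and 0.120), Dkk2 (0.156 and 0.164) and Cib2 (0.175 and 0.146) states lay at a similar level. The difference from the mean of the other states was −0.89 ± 0.11 (adjusted p = 4.09e-07). From fibroblast-like cells it was −1.80 ± 0.15 (adjusted p = 1.63e-09), or 3.47-fold lower in level + 0.1. The span of Klf6 among the 11 other states, 2.05 on the same scale, was larger than the difference of the pluripotent-like state from their mean.

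Klf7 (chr1:64029447-64122282), known for its roles in neuron and fat cell differentiation, was the member that fell most in pluripotent-like cells. There its level was 0.120 in replicate 1 (49 UMIs) and 0.113 in replicate 2 (131 UMIs). In the other states it ran from 0.386 to 1.82 in replicate 1 and from 0.658 to 1.52 in replicate 2, lowest in the S phase and highest in the Mmp11 state in both libraries. The groups did not overlap, and the difference was −2.31 ± 0.12 (adjusted p = 3.52e-12). This is 4.96-fold lower in level + 0.1, which understates the fold of the level itself. Against fibroblast-like cells, at 0.907 and 1.14, it was −2.37 ± 0.17 (adjusted p = 2.11e-10). After thinning, 4.11% (95% exact interval 1.52 to 8.73) and 3.08% (1.60 to 5.31) of pluripotent-like cells had a Klf7 UMI, against 14.3% to 41.3% and 17.6% to 34.0% over the other states. The long noncoding RNA gene Gm26649 overlaps Klf7 on the opposite strand. No source used here states whether strand was taken into account in the counting.

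Klf3 (chr5:64803388-64832901), a repressor that recruits CtBP and is best known from blood and fat cells, was higher in pluripotent-like cells than in each other state fitted, in both libraries. Its level was 1.35 and 1.45 there, against 0.490 to 0.924 and 0.477 to 0.818 in the other states. The difference was 0.96 ± 0.07 (adjusted p = 5.41e-10), and 0.97 ± 0.10 (adjusted p = 3.85e-08) against fibroblast-like cells, which held 0.615 and 0.720. Unlike Klf5, Klf3 was found in many cells of the other states, where before thinning a UMI was seen in 50.3% to 67.7% of the cells of a state in replicate 1 and 47.1% to 70.3% in replicate 2. At equal depth the shares were 34.2% (26.6 to 42.5) and 37.2% (32.4 to 42.2) in pluripotent-like cells, against at most 26.3% and 25.4% elsewhere. The highest of these, in the Dkk2 state, had intervals of 19.6 to 33.8 and 18.2 to 33.8. They overlapped those of pluripotent-like cells in both libraries.

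Klf9, Klf10 and Klf13 belong to the branch that recruits Sin3A, and they parted ways in these cells. Klf9 (chr19:23141226-23168134), a glucocorticoid-induced and thyroid hormone-induced factor, had a level of 1.84 and 1.73 in pluripotent-like cells. The Mmp11 state was above it in replicate 1 (2.20) and below it in replicate 2 (1.61), and the other 10 states lay below it in both libraries, down to 0.434 and 0.387 in the S phase state. The difference from the mean of the other states was 0.89 ± 0.09 (adjusted p = 2.44e-08). Against fibroblast-like cells, at 1.41 and 1.43, it was 0.32 ± 0.12 (adjusted p = 0.0208), and after thinning that call was lost (0.39, adjusted p = 0.0789). Klf9 thus joined the pluripotent-like state with fibroblast-like and Mmp11 cells at the upper end and left the cycling states at the lower end.

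Klf10 (chr15:38291463-38300706), first described as a TGF-beta-inducible early gene, changed least among the members called higher. Its level was 0.207 and 0.321 in pluripotent-like cells, 0.185 and 0.339 in fibroblast-like cells and between 0.0869 and 0.273 in the remaining states. The difference from the mean of the other states was 0.47 ± 0.11 (adjusted p = 8.41e-04), and it did not pass after thinning (0.24, adjusted p = 0.123). Against fibroblast-like cells the difference was 0.02 ± 0.15 (95% interval −0.30 to 0.34; adjusted p = 0.891), and −0.15 after thinning (adjusted p = 0.48). In none of the 11 pairs of neighbouring states in the Klf10 order did both library values of a state exceed both of the next. The order was alike in both libraries (Spearman rho 0.83 over 12 states, a description over states that share a library and differ in depth).

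Klf13 (chr7:63886351-63938915), a factor of heart and T cell gene expression, was lower in pluripotent-like cells than in each other state fitted. Its level was 0.679 and 0.577 there, against 1.04 to 1.82 in replicate 1 and 0.834 to 1.13 in replicate 2. The difference was −0.74 ± 0.10 (adjusted p = 1.71e-06), and −0.57 ± 0.14 (adjusted p = 8.61e-04) against fibroblast-like cells at 1.11 and 0.860. After thinning, 16.4% (exact interval 10.8 to 23.5) and 17.2% (13.6 to 21.3) of pluripotent-like cells had a Klf13 UMI. In the other states the shares were 25.6% to 38.9% and 20.7% to 27.4%. The pluripotent-like interval overlapped those of some other states in replicate 1 and of most in replicate 2. Among the overlapping ones were those of fibroblast-like cells, at 22.3 to 33.8 and 17.4 to 30.9.

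Against fibroblast-like cells alone, 3 members were higher (Klf5, Klf3 and Klf9) and 3 lower (Klf7, Klf6 and Klf13), where 33.3% of the genes tested were called higher and 46.3% lower. Klf5 entered this test through the pluripotent-like cells alone, so its call is no support for this count either. The median over the members, with Klf5 counted, was 0.02, which is the value of Klf10. Over the genes tested the median was −0.17.

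**Figure D2:**
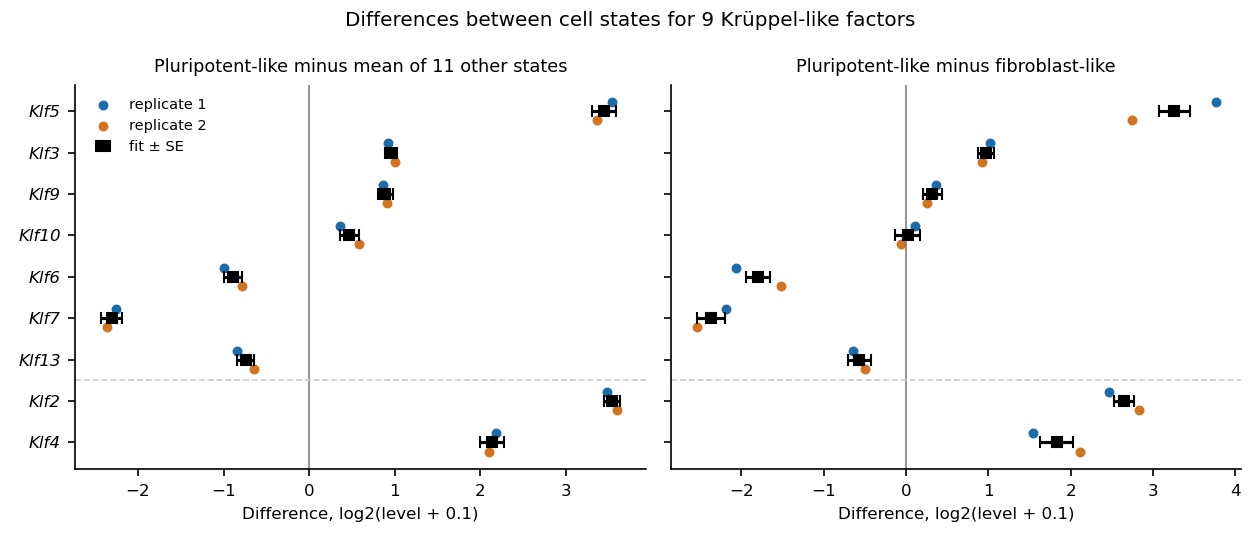
Difference on the log2(level + 0.1) scale between pluripotent-like cells and the mean of the 11 other states (left) or fibroblast-like cells (right), with black squares and bars for the limma estimate ± SE and coloured points for each library. The 7 members are above the dashed line and Klf2 and Klf4 below it; in the right panel the bar of Klf10 spans 0.

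**Figure D3:**
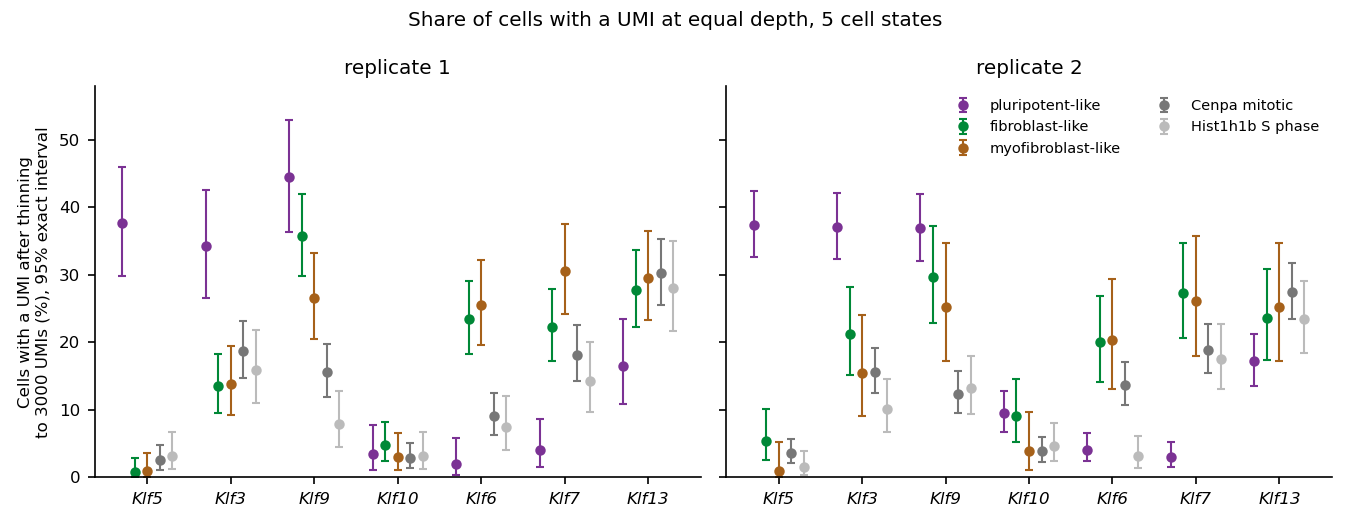
Share of cells with a UMI of each member after every cell was thinned to 3000 UMIs (vertical axis, percent), with 95% exact binomial intervals, in 5 cell states and the 2 libraries. In both libraries the Klf5 interval of pluripotent-like cells lies above, and their Klf7 interval below, those of the other 4 states, while the Klf10 intervals of pluripotent-like and fibroblast-like cells overlap.

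The pluripotent-like cells were a cycling population, and their early response genes were low. The summed level of the G2/M genes was 17.2 and 16.8 in them, against 0.681 to 31.2 and 0.633 to 27.7 in the other states. Set against the mean of the 3 cycling states, a comparison added after the data were seen, the members kept their directions: Klf5 3.31, Klf9 1.61, Klf3 1.22, Klf10 0.57, Klf13 −0.74, Klf6 −0.76 and Klf7 −1.89, with adjusted p from 3.96e-11 (Klf9) to 4.21e-04 (Klf10) for the 6 members other than Klf5. The summed level of the early response genes, which include Fos and Egr1, was 5.00 and 5.81 in pluripotent-like cells, against 5.52 to 15.4 and 7.52 to 18.5 in the other states. Its part in the lower level of Klf6, itself an early response gene, was not tested.

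Among the 11 other states, 6 of the 7 members differed between states (moderated F test in limma, adjusted p under 0.05), where 88.7% of the genes tested did. The span between the highest and lowest state was 2.05 for Klf6 (adjusted p = 3.53e-10), 1.96 for Klf9 (adjusted p = 5.20e-10), 1.54 for Klf7 (adjusted p = 4.58e-06), 0.81 for Klf10 (adjusted p = 0.00213), 0.73 for Klf3 (adjusted p = 2.34e-05) and 0.61 for Klf5 (adjusted p = 0.039). For Klf13 it was 0.43 and did not pass (adjusted p = 0.0575). Klf13 did pass in 7 of the 12 alternatives, with adjusted p from 0.00961 to 0.0493, and in 6 of these the count was 7 of 7. The Klf5 call was lost with a pseudocount of 1 (adjusted p = 0.187), without the filter on low values (0.16), after thinning (0.161) and without the deepest 5% of cells (0.0515), and the Klf3 call after thinning (0.0524).

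The S phase state was the lowest of the 11 for Klf3, Klf6, Klf7 and Klf9 in both libraries. The Mmp11 state, with matrix genes such as Dcn among its leading genes, was the highest for Klf3, Klf7 and Klf9 in both. Over these 11 states Klf7 and Klf9 followed each other (Pearson r 0.89 in replicate 1 and 0.82 in replicate 2), as did Klf3 and Klf9 (0.77 and 0.74). In pluripotent-like cells the first pair came apart, with Klf9 near its top level and Klf7 at its lowest. Klf6 and Klf13 did not move together over the 11 states (−0.09 and −0.15). These correlations describe 11 states that share a library and differ in depth, and carry no test.

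By pattern over all 12 states, the gene most like each member was Utf1 for Klf5 (r 0.977 and 0.973), Fads3 for Klf6 (0.973 and 0.968), Scp2 for Klf7 (0.961 and 0.956), Sugt1 for Klf3 (0.924 and 0.915), Tcea3 for Klf9 (0.886 and 0.866), Ccdc28b for Klf13 (0.884 and 0.882) and Gadd45a for Klf10 (0.787 and 0.771), ranked by the lower of the r values of the libraries. Zfp42, a naive pluripotency gene kept out of the clustering, came next but one for Klf5 (0.980 and 0.964). Utf1 is a marker that named the pluripotent-like state. Klf5 was high in that state alone among the 12, so its r over all 12 rests on that state. Over the 11 other states the 3 genes nearest to Klf5 were Aimp2 (0.950 and 0.831), Med28 (0.777 and 0.724) and Snrnp27 (0.784 and 0.716). Htra1, a secreted protease, came next for Klf6 (0.972 and 0.963), and Anxa4, a membrane-binding annexin, was among the 3 nearest to Klf7 (0.950 and 0.947).

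Cells of the pluripotent-like state held more members at once than those of any other state with 30 cells in replicate 2, and fewer than those of the Mmp11 state in replicate 1. After thinning to 3000 UMIs its cells had a UMI of 1.42 and 1.45 of the 7 members on average, and 16.4% and 17.9% had none. The Mmp11 state had 1.63 and 1.30, with 11.1% and 25.3% of cells without one, and the S phase state 0.799 and 0.738, with 41.8% and 50.0%. Within the pluripotent-like state, cells with and without a Dppa3 UMI had Klf6 levels of 0.190 and 0.118 in replicate 1 and 0.226 and 0.153 in replicate 2. Klf5 was 1.67 with and 1.69 without Dppa3 in replicate 1, and 1.46 and 2.00 in replicate 2; cells with Dppa3 were deeper (median 29424 against 27522 and 27518 against 24097 UMIs), and no test was run on this split.

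The libraries differed most steadily in Klf13. Over all cells its level was 1.24 in replicate 1 and 0.940 in replicate 2, a log2 difference of −0.37 (−0.41 with equal weight to each state), and it was lower in replicate 2 in 12 of 12 states. Of the genes tested, 3.16% were higher in replicate 1 in every state. Klf10 was higher in replicate 2 in 10 of 12 states (0.142 and 0.206 over all cells), and Klf5 in 11 of 12. The Klf5 level over all cells, 0.141 and 0.240, moved with the share of pluripotent-like cells, which was 4.70% and 9.96%, and the log2 difference of 0.50 fell to 0.12 when the states weighed equally. With 1 library of each kind at most, library, system and handling cannot be told apart, and no test was made.

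**Figure D4:**
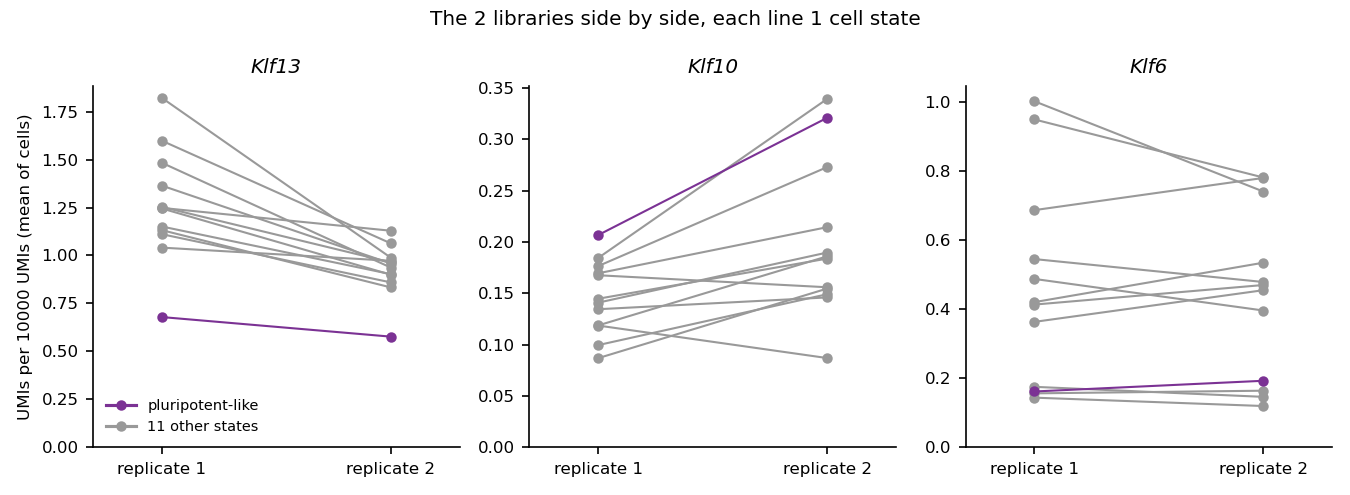
Level (vertical axis, UMIs per 10000 UMIs, from 0) of Klf13, Klf10 and Klf6 in replicate 1 and replicate 2, with 1 line for each of the 12 cell states and the pluripotent-like state in purple. Klf13 was lower in replicate 2 in 12 of 12 states, Klf10 was higher in replicate 2 in 10 and Klf6 in 6.

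Of the wider family, 9 other Klf and 8 Sp genes were in the table, and 2 of each passed the filter on low values. Klf2, a naive pluripotency factor, was higher in pluripotent-like cells by 3.54 ± 0.09 (adjusted p = 1.19e-16), with levels of 3.14 and 3.85 against at most 0.485 and 0.454 elsewhere. Klf4, which the cassette also carries, was higher by 2.14 ± 0.14 (adjusted p = 1.06e-10), at 1.14 and 1.12 against at most 0.469 and 0.623, and 3′ counts cannot tell endogenous from cassette transcripts where they share sequence. Klf5 was thus the member nearest to these circuit genes in the size of its difference. Sp1 (0.12 ± 0.10, adjusted p = 0.26) and Sp3 (−0.05 ± 0.08, adjusted p = 0.555), general GC-box binding factors, did not pass, with 95% intervals of −0.08 to 0.32 and −0.21 to 0.11.

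Of 12 genes listed as partners of these factors, 11 were tested, of which the pluripotent-like state had 6 higher and 4 lower. Over the genes tested these shares were 34.0% and 46.7%. Most of the listed genes are co-regulators, but Fbxw7 (among the higher) and Wwp1 (among the lower) are ubiquitin ligase genes. The CtBP genes through which Klf3 acts parted, with Ctbp2 higher by 1.24 ± 0.10 (adjusted p = 2.65e-09) and Ctbp1 lower (−1.44 ± 0.08, adjusted p = 3.30e-12). Sin3a, the partner of the Klf9, Klf10 and Klf13 branch, was higher by 1.13 ± 0.10 (adjusted p = 3.36e-09), and Hdac1, a histone deacetylase of the same complex, by 1.37 ± 0.08 (adjusted p = 1.62e-11). The list had a median of 0.43, against −0.13 over the genes tested.

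Of 10 genes listed as targets of Klf proteins, 8 were tested, 2 were higher and 5 lower, where 34.0% and 46.7% of the genes tested were, with a median of −1.20. Tagln, a smooth muscle gene that is also a myofibroblast marker used here, had −3.51 ± 0.11 (adjusted p = 1.24e-15). Col1a1, a collagen gene that is also a fibroblast marker used here, had −2.29 ± 0.09 (adjusted p = 2.40e-14). Smad7, an inhibitor of TGF-beta signalling, had 1.02 ± 0.12 (adjusted p = 3.38e-07). Of 12 TGF-beta early response genes, 11 were tested, 2 were higher and 8 lower, beside the same 34.0% and 46.7%, among the lower ones Tgfbi (−3.29 ± 0.13, adjusted p = 3.31e-14), while Tgif1, a repressor of the pathway, was higher by 1.49 ± 0.09 (adjusted p = 2.16e-11). Klf10, a gene of this class, was called higher. Of 8 glucocorticoid-responsive genes listed, 3 were tested, 1 was higher and 2 lower, beside the same 34.0% and 46.7%. Fkbp5 was higher by 0.84 ± 0.10 (adjusted p = 4.36e-07), and Tsc22d3 (−0.95 ± 0.10, adjusted p = 9.14e-08) and Dusp1 (−0.43 ± 0.11, adjusted p = 9.60e-04) were lower. Of 15 early response genes, 12 were tested, 10 were lower and 1 higher, again beside 46.7% and 34.0%. Of 8 naive circuit genes, 6 were tested, 4 were higher (Klf2, Klf4, Tfcp2l1 and Nanog) and Stat3 and Lifr were lower, beside the same 34.0% and 46.7%. Nanog is also a marker that named the state, and its mean level in the other states was 0.012 and 0.015. It reached the minimum level for testing through the pluripotent-like cells alone, so its call is no support for the count.

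Promoter sequence is shown for the 3 members that were lower together in pluripotent-like cells. RefSeq windows of 300 bases, from 250 before to 50 after the start, on GRCm38.p6, were at hand for 5 of the 7 members, and none for Klf5 and Klf10. The bases below are the stretch of each window before the exons of the gene that fall in the window, on the gene's strand. For Klf7 that stretch lies within an intron of 1 longer annotated transcript, whose start is farther upstream. Capitals mark the GC box GGGCGG and the Krüppel-like box CACCC, which Sp and Klf factors bind, and the NF-Y box CCAAT, all on either strand. Hits of the GC box and of the Krüppel-like box can overlap.
Klf6, chr13:5861239-5861481, plus strand: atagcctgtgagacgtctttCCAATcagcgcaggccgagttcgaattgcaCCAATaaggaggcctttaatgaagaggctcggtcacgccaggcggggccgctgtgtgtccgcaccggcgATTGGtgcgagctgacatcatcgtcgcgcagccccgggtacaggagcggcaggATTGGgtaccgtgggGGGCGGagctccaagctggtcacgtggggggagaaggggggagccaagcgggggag
Klf7, chr1:64121492-64121639, minus strand: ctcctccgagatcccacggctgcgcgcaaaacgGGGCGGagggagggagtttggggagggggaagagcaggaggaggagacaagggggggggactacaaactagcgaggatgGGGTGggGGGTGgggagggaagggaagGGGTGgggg
Klf13, chr7:63938916-63939165, minus strand: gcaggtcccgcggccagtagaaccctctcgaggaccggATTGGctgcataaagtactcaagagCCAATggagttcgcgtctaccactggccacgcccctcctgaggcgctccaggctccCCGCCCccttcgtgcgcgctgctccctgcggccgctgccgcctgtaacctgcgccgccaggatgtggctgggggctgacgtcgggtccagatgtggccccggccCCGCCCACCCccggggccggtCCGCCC
In their full windows Klf6, Klf7 and Klf13 held 1, 1 and 3 GGGCGG, 0, 3 and 1 CACCC, and 4, 0 and 2 CCAAT. Of 32851 windows, 35.7% held GGGCGG, 57.5% CACCC and 37.4% CCAAT, and 3.37% held 3 or more CCAAT. Klf3, one of the members that was higher, had 6 GGGCGG and 5 CACCC, and Klf9 0 and 1. The Klf9 window also held 3 CCAAT, so each of these motifs was found in a member that was higher as well as in one that was lower. A match is a description of the letters, not of binding.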

How the data were processed

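Droplet 3′ libraries of 2 day 16 samples were counted by the authors with Cell Ranger 2.1.1 on mm10, filtered and normalized with Seurat, and deposited as natural log values, ln(1 + 10000 × UMIs of the gene / UMIs of the cell). Deposited cells held 1508 to 5987 genes and at most 8.99% mitochondrial UMIs. Undoing the log gave whole UMIs for 100% of values (tolerance 0.01), summing to 54145377 and 64654306 UMIs. The members and lists were chosen with earlier results of these data known.

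Cells of both libraries were clustered together (2000 variable genes, 30 components, 15 neighbours, leidenalg 0.10.2, resolution 1), leaving out 634 genes: Klf and Sp genes, X-linked and Y-linked genes, reprogramming factors and 5 pluripotency genes held back. A state took a class name from markers at least 2-fold up (at least 3, and 50% of those in the table). No doublet caller was run, and leaving out the deepest 5% of cells was an alternative. Mean levels per state and library, for states with at least 30 cells in both, were fitted as log2(level + 0.1) with limma 3.58.1 (R 4.3.3), state and library as terms, over the genes whose mean reached 0.1, with Benjamini-Hochberg adjustment and a threshold of 0.05. The labels do not say whether the libraries came from separate cultures, so p-values measure the spread between these 2 libraries, which may be technical. Named were the 7 members, list genes with the largest differences past the threshold, and the 3 genes most like a member by Pearson r. Scripts were tested on simulated data.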

Additional observations from a re-analysis of the deposited data

How the results depend on the processing

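The calls of Klf3, Klf5, Klf6, Klf7, Klf9 and Klf13 against the mean of the other states kept their direction and their side of the threshold under each alternative in which they were tested. Where the filter on low values applied, Klf5 entered the test through the pluripotent-like cells alone, so its calls there are no support. After thinning to 3000 UMIs, calls were lost for Klf10 against the other states (0.24), for Klf9 against fibroblast-like cells (0.39), and among the other states for Klf3 (span 0.88) and Klf5 (0.87); the cause was not tested. Klf10 against fibroblast-like cells, not called in any setting, turned from 0.02 to −0.15 after thinning and to −0.01 with Klf and Sp genes in the clustering. Among the other states Klf5 also lost its call with a pseudocount of 1 (0.09), with no filter (0.61) and without the deepest cells (0.62), and Klf13 passed with a mean of at least 0.5 (0.43), limma with trend and robust (0.43), UMIs summed over cells (0.46), resolution 0.5 (0.42), resolution 2 (0.59), 4000 variable genes (0.46) and Klf and Sp genes in the clustering (0.46). With a mean of at least 0.5 the count of members called higher was 2 and that called lower also 2, since Klf5 and Klf10, both higher, and Klf6, lower, were then not tested. Without replicate 1 or replicate 2 the values had no test and ranged for Klf10 against fibroblast-like cells from −0.06 to 0.11. Library is a term of the fit, so that each state is compared within its library. No paired analysis was possible beyond that because both libraries belong to 1 group. In pluripotent-like cells the values rest on 84 and 312 UMIs for Klf10, 75 and 194 for Klf6, and 49 and 131 for Klf7.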

Other observations

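The 3 states with under 30 cells in a library were left out of the fit, and their values are given with no test. Macrophage-like cells (17 and 10 cells, with 7 of 7 markers) had the highest Klf6 levels of any state in both libraries, 2.07 and 2.38, from 30 and 21 UMIs. They held no Klf5 UMI in either library, which after thinning to 3000 UMIs allows up to 19.5% and 30.9% of cells with a Klf5 UMI (95% exact interval), a limit on detection at this depth and not on cells that express the gene. The Klf3 level of macrophage-like cells was 1.56 in replicate 1, from 22 UMIs, above the pluripotent-like cells of that library. In replicate 2 it was 0.933, from 10 UMIs.

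Epithelial-like cells (67 and 7 cells, with 9 of 11 markers) had a Klf5 level of 0.303 in replicate 1, from 51 UMIs, and of 0.123 in replicate 2, from 2 UMIs, below the pluripotent-like cells of the same library. The replicate 1 level was above that of each other state fitted in that library, where Klf5 was at most 0.0949 outside pluripotent-like cells. Their Klf7 level was 0.344 in replicate 1, from 51 UMIs, and no Klf7 UMI was found in the 7 cells of replicate 2. Their Klf13 level was 0.837 in replicate 1, from 133 UMIs, and 0.376 in replicate 2, from 8 UMIs. The value of replicate 2 was below that of the pluripotent-like cells of the same library.

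The state led by Trf and Saa3 had 41 cells in replicate 2 and 1 cell in replicate 1. In replicate 2 its Klf10 level was 0.680, from 37 UMIs, against 0.0870 to 0.339 over the 12 larger states of that library, and its early response genes summed to 39.9, against 5.81 to 18.5.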
